A study of Mus musculus with 6 samples.

Results

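Metalloproteases of the ADAM, ADAMTS, MMP and tolloid families and their inhibitors were compared between 2 genotypes of primary cells from the mouse kidney, the proximal tubular epithelium that reabsorbs most of the filtrate. The members were taken by gene symbol: every row whose symbol starts with Adam and a digit, Adamts, Mmp and a digit, or Timp and a digit, with Bmp1, Tll1 and Reck. This gave 87 of the 24421 genes in the deposited table, namely 33 ADAM, 19 ADAMTS, 5 ADAMTS-like and 23 MMP genes, 2 tolloid proteases, and 5 inhibitors (4 TIMP genes and Reck). The cells had been grown from kidney in medium with serum and were then given 20 µM erastin2 for 24 h in all 6 libraries. Erastin2 blocks the cystine importer system xc- and can lead to ferroptosis. A group of 3 libraries carried the genotype label Atg5F/F (floxed alleles, the control) and a group of 3 the label Atg5KO. ATG5 belongs to the conjugation machinery of autophagy. All 6 had the same batch date. The labels name neither a Cre driver, nor the part of Atg5 removed, nor the animal or culture behind each library. Every p-value here therefore reflects only how much these libraries scatter, and that scatter could be technical. No untreated group was analysed here, and a difference that exists without erastin2 cannot be told apart from one that needs it.

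These enzymes hold a zinc ion in the active site and are made as inactive precursors. ADAMs sit in the plasma membrane and cut other membrane proteins off the cell, such as growth factor precursors, Notch receptors and adhesion molecules. ADAMTS proteins are secreted and act on proteoglycans and procollagens, MMPs cut collagens, basement membrane and many non-matrix proteins, and tolloids trim procollagens and release growth factors from their antagonists. TIMPs bind the active site, and RECK restrains several MMPs at the cell surface. In the kidney these genes are best known from tubular injury, repair and fibrosis.

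Library totals implied by the deposited FPKM values (fragments per kilobase of exon, adjusted for the size of each library) were 15528454 to 30004933 reads. Atg5 itself had FPKM of 8.76, 8.95 and 7.94 in F/F-labelled against 13.3, 11.5 and 12.7 in KO-labelled libraries (means 8.55 ± 0.538 and 12.5 ± 0.936, SD, n = 3 each), so its level went against the label. A value over the whole gene does not check a deleted exon. Directions below therefore rest on the labels. Of 12 markers of proximal tubule, Lrp2, Pax8, Aqp1, Ggt1 and Hnf4a passed the filter of 1 FPKM, whereas Cubn, Slc34a1, Slc5a2 and Slc22a6 stayed under 0.5 FPKM and Slc22a8 was listed at 0. Over the list, 3 markers were lower and 1 higher in KO-labelled libraries, and the summed level was 433.4 to 454.7 FPKM against 351.7 to 380.7 FPKM. The largest part of this sum was Pax8 (means 233.6 and 240.9 FPKM), whose groups overlapped. Ggt1 (126.5 and 54.4 FPKM) had the largest decrease. All 5 general epithelial markers (Epcam, Cdh1, Krt8, Krt18, Cldn4) were higher in KO-labelled libraries, with sums of 394.3 to 435.5 against 609.2 to 690.1 FPKM. The 8 fibroblast and pericyte markers, whose cells are rich in several of these proteases, summed to 0.143 to 0.347 FPKM in F/F-labelled and 0.239 to 0.535 FPKM in KO-labelled libraries. The 6 markers of later tubule segments summed to at most 0.1 FPKM. Endothelial markers summed to 8.49 to 10.0 against 5.27 to 6.56 FPKM, nearly all from Kdr. Leukocyte markers summed to 15.6 to 18.5 against 14.9 to 16.7 FPKM, nearly all from Csf1r, Cd68 and Cd14, which reached 1 FPKM in every library. Of these, only Cd68 had groups free of overlap, lower in KO-labelled libraries, and the tests described below called none of them. Ptprc and Lyz2 stayed under 0.5 FPKM and Adgre1 was at 0. Podocyte markers summed to 4.74 to 5.59 against 4.98 to 5.71 FPKM. The part of these shifts in the differences below was not tested. In bulk RNA, fewer cells of a type and less RNA per cell cannot be told apart.

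Among the tested genes, KO-labelled libraries had more transcript of a tolloid protease, a membrane ADAM and a membrane MMP (Tll1, Adam12, Mmp15), whereas the widely studied sheddases Adam10 and Adam17 differed by less than their error. The TIMPs split: Timp2 was higher and Timp1 and Timp3 lower. Tests were made with limma on log2(FPKM + 1) over 11559 genes that reached 1 FPKM in 3 or more of the 6 libraries, and a gene was called at a Benjamini-Hochberg adjusted p under 0.05. Of the 87 members, 23 passed this filter, 22 of them in every library and Adam8 in all but 1, so none entered through a single group. Of the 23, 9 were called higher and 5 lower in KO-labelled libraries and 9 were not called. Among all tested genes 39.2% were called, 21.3% higher and 17.9% lower. Calls were thus common throughout the transcriptome, and the members' count is a description of this list. The median log2 fold change of the 23 was 0.05, beside 0.02 over all tested genes. An absolute log2 fold change of at least 0.5 together with a call was reached by 5 members, beside 6.86% of all tested genes. The groups were free of overlap in the same 14 members (9 higher and 5 lower), beside 51.9% of all tested genes (28.7% higher and 23.2% lower). Fold changes on the log2(FPKM + 1) scale understate those of low genes. In the authors' deposited table, 13 of the 14 called members also had an FDR under 0.05, the exception being Mmp11 (FDR 0.201 there). Those FDR values came from the same 6 libraries, so the overlap is no independent support. The share of all genes under that FDR was not computed here.

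**Figure D1:**
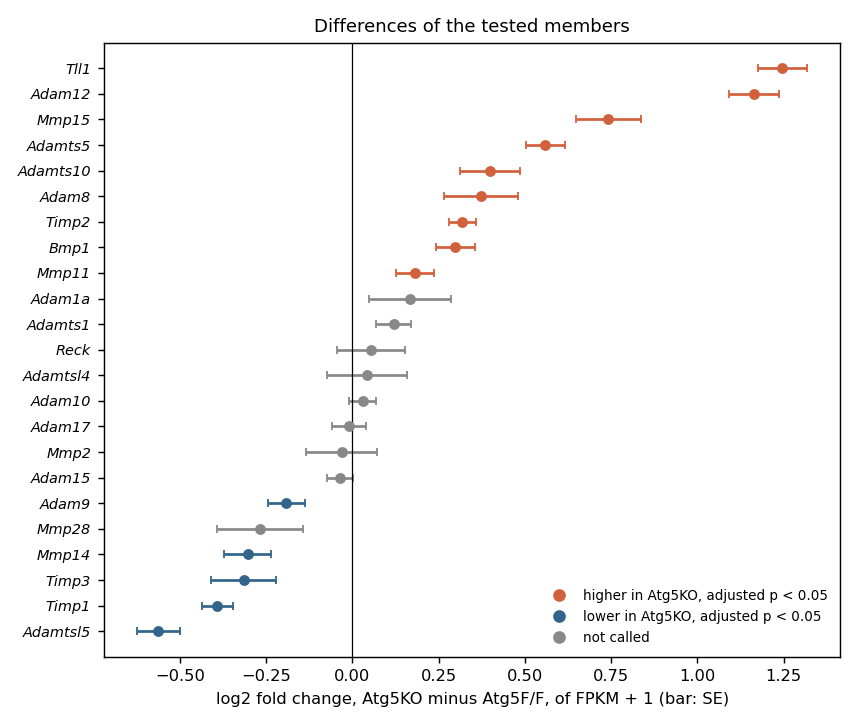
Log2 fold change of FPKM + 1 (horizontal axis, KO-labelled minus F/F-labelled libraries, bars are SE) for the 23 tested members. The 9 higher members run from Mmp11 at 0.18 to Tll1 at 1.25, and the 5 lower ones from Adam9 at -0.19 to Adamtsl5 at -0.56.

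The level of the members spanned several orders of magnitude. Adamts1, a secreted protease of proteoglycans, alone made up 37.7% to 40.3% of the summed FPKM of all members in a library. Behind it came Timp2, Adam9, Adam10, Adamts5, Adam15, Bmp1, Timp3, Adam17, Timp1 and Mmp14, and these 11 genes averaged at least 10 FPKM over the 6 libraries. The other 12 tested members averaged from 1.23 FPKM (Adam1a) to 7.66 FPKM (Mmp2). The other 64 members were below the filter, 17 of them at 0 in every library.

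**Figure D2:**
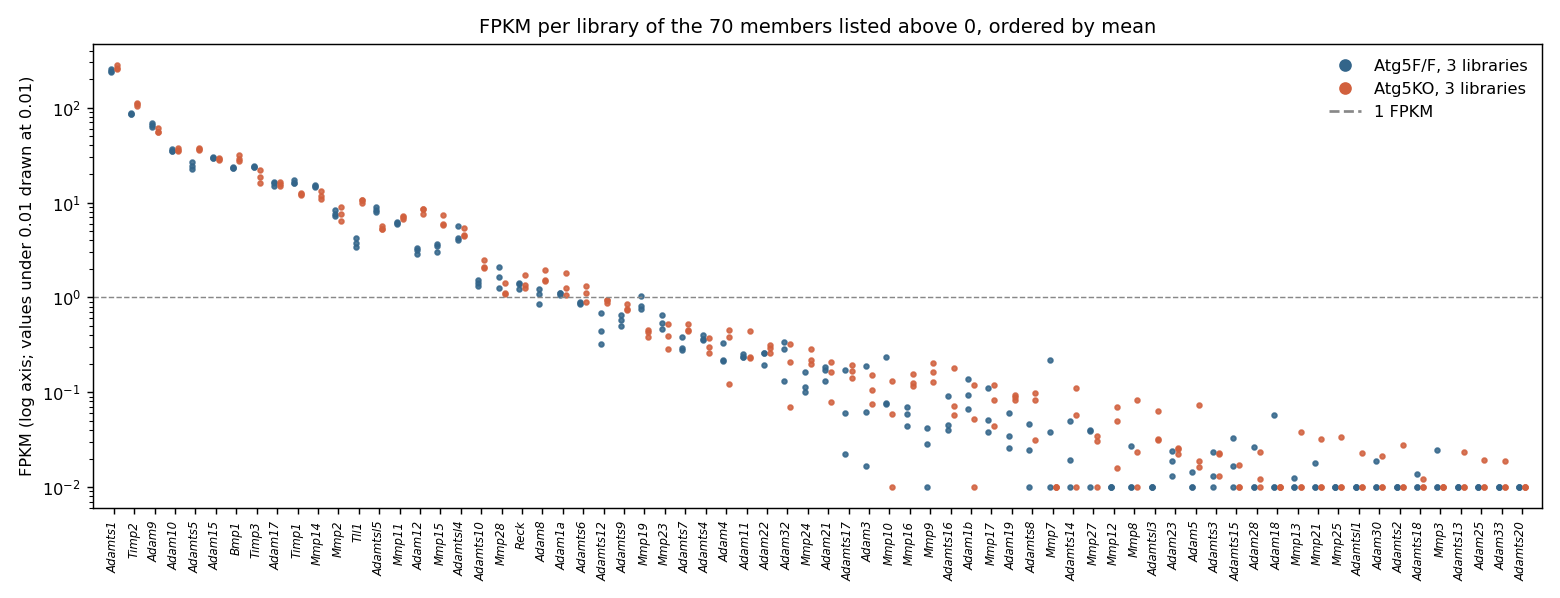
FPKM (log axis, values under 0.01 drawn at 0.01) in each library for the 70 members listed above 0, ordered by their mean over the 6 libraries; the dashed line marks 1 FPKM. Adamts1 stands at the top with 237 to 281 FPKM, and 47 of the 70 members did not pass the filter.

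Of the 33 ADAM genes, 7 were tested, with 2 called higher and 1 lower. Adam12 (chromosome 7, 133883199 to 134232146 in GRCm38, as for all positions here) encodes a membrane sheddase that is normally low in adult epithelia and known from fibrotic tissue. F/F-labelled libraries 1 to 3 had FPKM of 3.34, 2.89 and 3.13, against 7.5, 8.64 and 8.56 in KO-labelled libraries 1 to 3, the order kept below. All KO-labelled values lay above the F/F-labelled ones by more than the spread in either group, a 2.64-fold ratio of means (log2 fold change 1.16, SE 0.0726, limma adjusted p = 9.7e-06). Adam8, a sheddase best known from leukocytes, was near the filter, with FPKM of 1.23, 0.847 and 1.09 against 1.95, 1.54 and 1.49, resting on 41 to 120 reads per library. It was higher by 0.37 (SE 0.108, limma adjusted p = 0.024). The Adam8 call was lost without replicate 2 or 3 of Atg5F/F or replicate 1 of Atg5KO (log2 fold changes 0.30, 0.39 and 0.29, adjusted p = 0.073, 0.060 and 0.082). Adam9, the most abundant ADAM here, was slightly lower, with FPKM of 62.6, 68.4 and 65.7 against 54.8, 55.7 and 61.5. The closest values of the groups, 62.6 and 61.5, nearly met, and the log2 fold change was -0.19 (SE 0.0532, limma adjusted p = 0.021). Its call was lost without Atg5F/F replicate 2 or 3 or Atg5KO replicate 1 or 2 (adjusted p = 0.066, 0.063, 0.074 and 0.060, log2 fold changes -0.16, -0.19, -0.16 and -0.17).

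The other tested ADAMs were not called. Adam10, which sheds Notch receptors and cadherins, had FPKM of 36.2, 35.3 and 35.1 against 36.0, 35.2 and 37.8. The groups overlapped, and the log2 fold change of 0.03 (SE 0.0398, adjusted p = 0.58) turned to -0.03 once each library's trend on gene length was removed. Adam17, the enzyme that releases tumour necrosis factor and several ligands of the EGF receptor, had 16.3, 15.1 and 16.2 against 15.6, 15.1 and 16.5 FPKM (log2 fold change -0.01, SE 0.0495, adjusted p = 0.88). Adam17 shares 311 exon bases with Iah1 on the opposite strand, a more abundant gene that reached 88.6 FPKM. The sources used here do not say whether reads were counted by strand, so reads of such pairs may be mixed. Adam15 stood at 29.5 ± 0.482 and 28.8 ± 0.864 FPKM (SD, n = 3 each; log2 fold change -0.04). Adam1a, whose annotated exons overlap those of Mapkapk5 by 1805 bases on the same strand, stood at 1.10 ± 0.0251 and 1.37 ± 0.381 FPKM and is uncertain. Adam19 did not pass the filter, with 5, 6 and 5 reads against 12, 9 and 10.

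Of 19 ADAMTS genes, 3 were tested, with 2 called higher. Adamts5 (chromosome 16, 85856173 to 85901828) encodes the aggrecanase that cuts aggrecan and versican. It had FPKM of 26.8, 22.8 and 24.4 against 37.9, 36.6 and 35.8. The groups were well apart, at a 1.49-fold ratio of means (log2 fold change 0.56, SE 0.0572, limma adjusted p = 1.4e-04). Adamts10, linked to fibrillin microfibrils, was lower in level, with 1.31, 1.41 and 1.51 against 2.07, 2.45 and 2.02 FPKM (0.40, SE 0.0860, adjusted p = 0.0067). Adamts1 had 256, 237 and 243 against 255, 264 and 281 FPKM. Its groups overlapped and it was not called (0.12, SE 0.0509, adjusted p = 0.092), although quantile normalization and voom on recovered reads called it (adjusted p = 0.026 and 0.024). Of the ADAMTS-like genes, which lack a protease domain, Adamtsl5 (chromosome 10, 80339110 to 80348412) was lower. Its values were 7.96, 8.97 and 8.44 against 5.31, 5.2 and 5.70 FPKM (-0.56, SE 0.0612, adjusted p = 1.9e-04), the largest decrease among the tested members. Adamtsl4 had 4.65 ± 0.910 and 4.79 ± 0.531 FPKM (SD, n = 3 each) and was not called.

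Of 23 MMP genes, 5 were tested, and the membrane-anchored ones differed in direction. Mmp15 (chromosome 8, 95352268 to 95375080), which encodes the transmembrane enzyme MT2-MMP, had FPKM of 3.65, 3.45 and 3.03 against 5.88, 7.35 and 5.79. Every KO-labelled value exceeded every F/F-labelled one (log2 fold change 0.74, SE 0.0942, limma adjusted p = 4.4e-04). Mmp14, which encodes MT1-MMP, the activator of pro-MMP2 and a collagenase of the cell surface, had 14.8, 14.7 and 15.3 against 13.3, 11.7 and 10.8 FPKM. Its groups were also apart, in the other direction (-0.30, SE 0.0682, adjusted p = 0.0081). Mmp2, the gelatinase that MT1-MMP activates together with TIMP2, overlapped fully at 7.56, 8.34 and 7.29 against 6.37, 8.92 and 7.5 FPKM (-0.03, SE 0.102, adjusted p = 0.83). Mmp11, a stromelysin cleaved inside the cell by furin, was slightly higher, at 6.28, 6.02 and 5.87 against 6.74, 7.28 and 6.98 FPKM (0.18, SE 0.0548, adjusted p = 0.029). Mmp11 shares 155 exon bases with Chchd10 on the opposite strand, an abundant gene that reached 70.6 FPKM. The Mmp11 call was lost with voom on recovered reads (adjusted p = 0.059), without a filter (0.055), and without Atg5F/F replicate 2 or 3 or Atg5KO replicate 2 or 3 (adjusted p = 0.065, 0.10, 0.083 and 0.065, at log2 fold changes of 0.18, 0.16, 0.16 and 0.18). Mmp28, a secreted enzyme of epithelia, had 1.27, 2.09 and 1.63 against 1.4, 1.10 and 1.09 FPKM and was not called (-0.27, adjusted p = 0.12). Mmp28 shares 466 exon bases with 1700020L24Rik on the opposite strand, which reached 1.97 FPKM, a level like that of Mmp28 itself. Mmp28 was called without Atg5F/F replicate 1 (-0.38, adjusted p = 0.046).

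Both tolloid proteases among the members were higher in KO-labelled libraries. Other procollagen-cutting enzymes are outside the rule for members. Tll1 (tolloid-like 1; chromosome 8, 64014931 to 64206271) had the largest increase of all tested members. Its FPKM was 4.24, 3.44 and 3.76 against 10.7, 10.6 and 9.88, on 263 to 1036 reads. The lowest KO-labelled library was well above the highest F/F-labelled one, at a 2.73-fold ratio of means (log2 fold change 1.25, SE 0.0715, limma adjusted p = 6.7e-06). Bmp1, the founding member of this family, was more abundant and moved less, with 23.4, 23.4 and 23.8 against 27.3, 31.8 and 28.5 FPKM (0.30, SE 0.0554, adjusted p = 0.0033). The summed FPKM of both genes was 27.3 ± 0.469 against 39.6 ± 2.49 (SD, n = 3 each). Each library's deviation from gene means ran with gene length (Spearman rho -0.16 to -0.23 in F/F-labelled, 0.04 to 0.34 in KO-labelled libraries, across genes, which are not independent replicates). With that trend removed, Tll1 stood at 1.19, Adam12 at 1.08 and Adamts5 at 0.47, all still called.

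**Figure D3:**
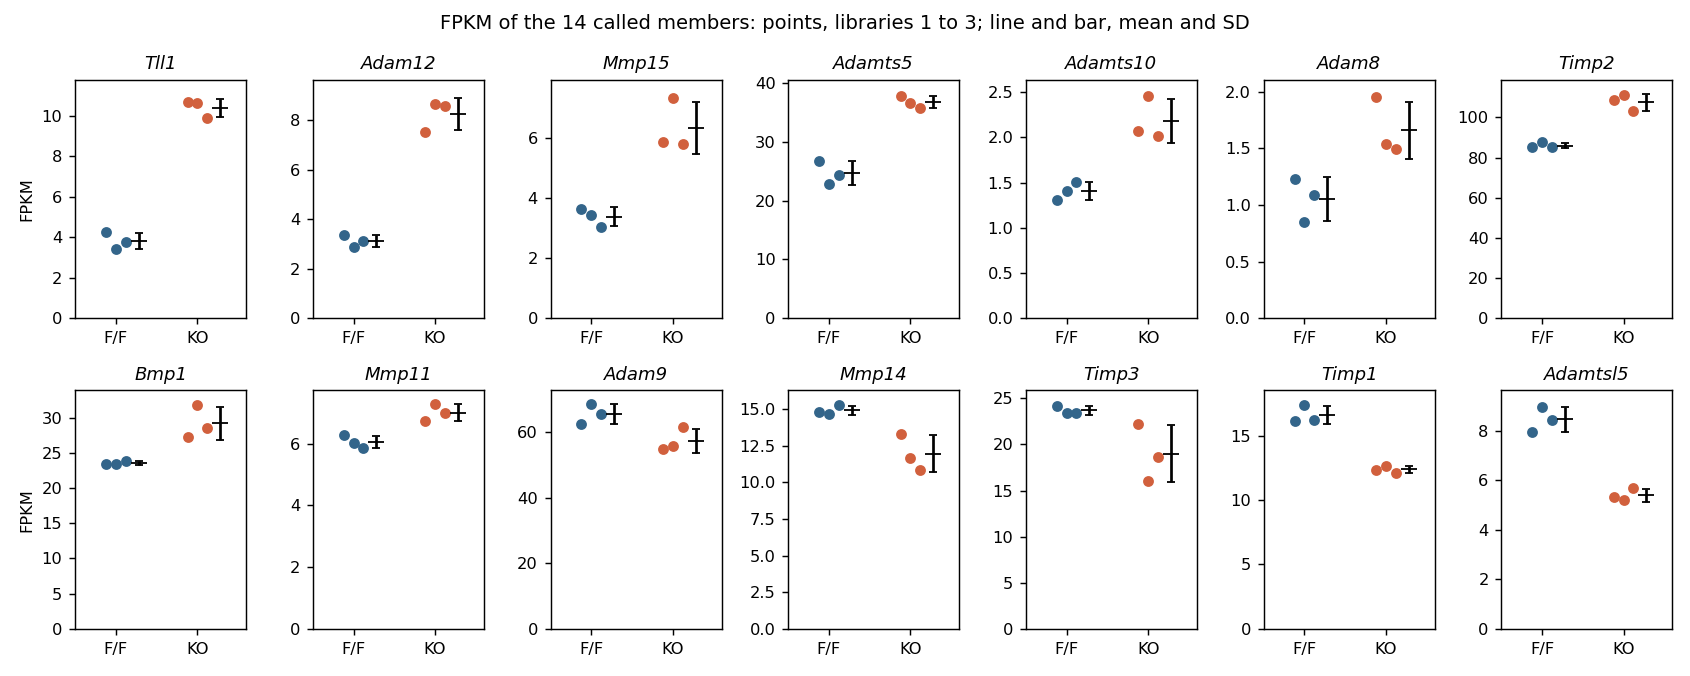
FPKM (vertical axes, from 0) of the 14 called members in each library, F/F-labelled and KO-labelled, with the group mean and SD beside the points. Tll1, Adam12 and Mmp15 show the widest gaps relative to their level, and in Timp3, Adam9 and Mmp11 the nearest values of the groups come close.

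Of the 5 inhibitors, 4 were tested and Timp4 was listed at 0 in every library. Timp2 (chromosome 11, 118301069 to 118355740) was the second most abundant member and higher in KO-labelled libraries. Its FPKM was 85.1, 87.6 and 85.3 against 108, 111 and 103 (log2 fold change 0.32, SE 0.0401, limma adjusted p = 4.1e-04). Timp1 (chromosome X, 20870166 to 20874735), the inducible inhibitor, was lower, at 16.1, 17.4 and 16.3 against 12.4, 12.7 and 12.1 FPKM (-0.39, SE 0.0460, adjusted p = 2.8e-04). Both differences exceeded the spread within groups by a wide margin. Timp3, the matrix-bound inhibitor that also blocks ADAM17 and aggrecanases, had 24.2, 23.4 and 23.4 against 22.3, 16.1 and 18.6 FPKM (-0.32, SE 0.0948, adjusted p = 0.028). Its KO-labelled values were scattered, and of the fits without a library only that without Atg5KO replicate 1 kept the call (-0.43, adjusted p = 0.0024). Without the filter the adjusted p was 0.079. Without Atg5F/F replicates 1, 2 and 3 and Atg5KO replicates 2 and 3 the adjusted p was 0.077, 0.061, 0.065, 0.054 and 0.065, with log2 fold changes of -0.30, -0.32, -0.32, -0.21 and -0.31. Timp3 also lies within Syn3 on the opposite strand, with 1733 shared exon bases, though Syn3 reached only 1.14 FPKM. Reck had 1.35 ± 0.0996 and 1.44 ± 0.252 FPKM (SD, n = 3 each) and was not called (0.05, SE 0.0982, adjusted p = 0.69).

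Summed over each family, the TIMP genes came to 125.4, 128.4 and 125.0 against 143.1, 140.0 and 133.8 FPKM, most of it Timp2. The MMP genes summed to 35.5, 36.9 and 34.8 against 35.5, 37.8 and 33.9 FPKM, and these sums overlapped. The ratio of summed TIMP to summed MMP transcripts was 3.53, 3.48 and 3.59 against 4.04, 3.71 and 3.94. The KO-labelled ratios were all above the F/F-labelled ones, a description of transcripts that says nothing of protein or activity. The ADAM sums overlapped (153.2 ± 1.88 and 151.1 ± 5.2 FPKM), and the ADAMTS sums did not (274.3 ± 11.6 and 309.8 ± 12.3 FPKM; SD, n = 3 each). Most of the ADAMTS sum was Adamts1 (means 245.4 and 266.9 FPKM), whose own groups overlapped and which was not called. Adamts5 came next (24.7 and 36.8 FPKM).

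**Figure D4:**
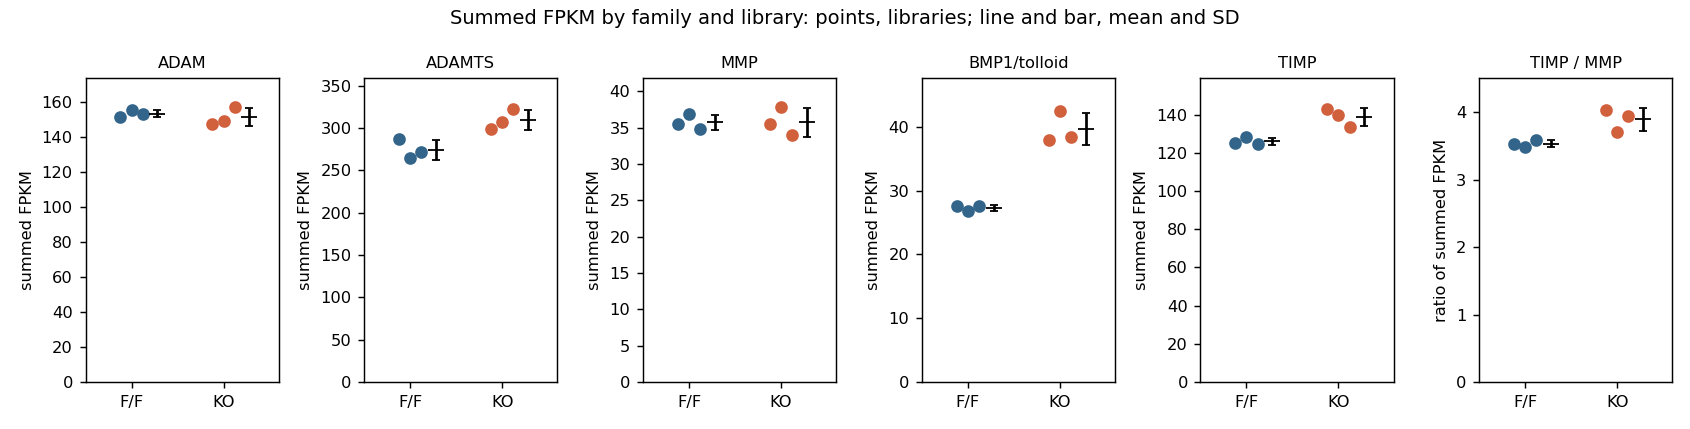
Summed FPKM of each family and the TIMP to MMP ratio of sums (vertical axes from 0) in each library, with mean and SD of each group. The MMP sums overlap between groups, and the ratio is 3.48 to 3.59 in F/F-labelled and 3.71 to 4.04 in KO-labelled libraries.

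Many members had few reads or none. Of the 64 below the filter, 17 were at 0 and 24 more stayed under 0.1 FPKM in every library. Those at 0 were Adam2, Adam6a, Adam6b, Adam7, Adam20, Adam24, Adam26a, Adam26b, Adam29, Adam34, Adam39, Adamts19, Adamtsl2, Mmp1a, Mmp1b, Mmp20 and Timp4, and most of these ADAM genes are known from the testis. The 5 highest were Adamts6, Adamts12, Adamts9, Mmp19 and Mmp23. Mmp19, a basement membrane protease, had 0.811, 1.04 and 0.752 against 0.455, 0.428 and 0.383 FPKM, from 84, 56 and 58 against 31, 25 and 23 reads. Adamts12 had 0.444, 0.692 and 0.323 against 0.862, 0.948 and 0.931 FPKM, from 83, 67 and 45 against 106, 100 and 101 reads. In neither gene did the groups overlap. Mmp9, the inducible gelatinase, rested on 4, 0 and 2 against 8, 11 and 9 reads, and Mmp7, a matrilysin known from injured tubules, on 1, 3 and 0 against 0, 0 and 0. Fitting the recovered reads of all 15105 genes with at least 10 reads in all (limma voom) was chosen after seeing how many members lay below 1 FPKM. That fit held 51 members and called 18 higher and 6 lower in KO-labelled libraries, beside 20.7% and 16.1% of all genes in it. Of its 28 members below the FPKM filter, 9 were called higher and 1, Mmp19, lower (log2 fold change -0.97, adjusted p = 0.0023). For all genes below the filter, the shares called in that fit were not computed here, so these counts are a description only. Adamts12 stood at 1.04 (adjusted p = 2.1e-04) in the same fit. Adamts7, Adamts9, Adamts17, Adam19, Mmp16 and Mmp24 were called higher there as well, with adjusted p of 0.017 to 0.042. Mmp9 and Adamtsl3 complete the 9, but both reached 10 reads only through the KO-labelled libraries, so a difference was built into their selection. In the authors' deposited table, 7 of the 64 members below the filter had an FDR under 0.05: Adamts9, Adamts12, Adamts17, Adamtsl3, Mmp9, Mmp12 and Mmp19. The share of all genes below the filter with such an FDR was not computed here, so the 7 are a description only. Mmp12, the macrophage elastase, rested on 0, 0 and 0 against 5, 3 and 1 reads, and Adamtsl3 on 0, 0 and 1 against 9, 4 and 4. Genes of these lists outside the rule for named genes were named after their values were seen.

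Promoter sequences were searched for the letters of 4 motifs. RefSeq starts on GRCm38.p6 matched 55 of the 87 members (60 starts) and 17 of the 23 tested ones (17 starts), and the 250 bases before each start were searched on both strands. The AP-1 motif searched was TGANTCA, a loose form with any base at N. The TATA-box letters were TATAAA. For SP1 the search used GGGCGG, and for TEAD factors GGAATG. A missing match says only that these letters are not in the window. TGANTCA was in 12 of the 60 member starts (20.0%), beside 6.75% of all 32851 promoters and 4.20% of those of tested genes. The 12 were Mmp1a, Mmp1b, Mmp3, Mmp7, Mmp10, Mmp12, Mmp13, Mmp20, Adam19, Adam20, Adam25 and Adam29, all below the filter. The windows of these MMP genes lie close together on chromosome 9 (7272264 to 7692089). Those of Adam20 and Adam25 are nearly identical in sequence, so the 12 are not independent of each other. In Mmp20, Adam20 and Adam25 the match read TGAATCA. None of the 17 tested members with a start held TGANTCA, which is near the 4.20% of tested genes. The other 6 tested members were not searched. TATAAA was in 13 of 60 starts (21.7%, beside 12.37% of all promoters), of which Adamts1 was the 1 tested gene. GGGCGG was in 15 of the 17 tested members, beside 59.28% of promoters of tested genes and 32.74% of all. GGAATG was in 5 of 60 (8.3%, beside 12.64%). The starts shown are those of a pair of MMPs with few reads and both AP-1 and TATA letters, of Timp1 and Timp2, which differed in opposite directions, and of Mmp15 and Tll1, which rose. They are written 5′ to 3′ along the gene and end at the base before the start, with capitals for any of these motifs on either strand.
Mmp10 (chr9:7502092-7502341, strand plus): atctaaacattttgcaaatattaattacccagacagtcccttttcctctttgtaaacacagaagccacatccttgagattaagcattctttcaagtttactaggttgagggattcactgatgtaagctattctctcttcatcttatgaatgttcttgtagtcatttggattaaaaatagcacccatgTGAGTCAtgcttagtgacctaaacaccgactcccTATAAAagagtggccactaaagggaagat
Mmp13 (chr9:7272264-7272513, strand plus): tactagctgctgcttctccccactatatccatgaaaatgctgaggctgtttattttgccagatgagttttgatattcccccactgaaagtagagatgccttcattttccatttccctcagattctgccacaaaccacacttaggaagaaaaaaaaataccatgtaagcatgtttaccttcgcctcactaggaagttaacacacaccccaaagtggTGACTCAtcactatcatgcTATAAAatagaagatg
Timp1 (chrX:20869916-20870165, strand plus): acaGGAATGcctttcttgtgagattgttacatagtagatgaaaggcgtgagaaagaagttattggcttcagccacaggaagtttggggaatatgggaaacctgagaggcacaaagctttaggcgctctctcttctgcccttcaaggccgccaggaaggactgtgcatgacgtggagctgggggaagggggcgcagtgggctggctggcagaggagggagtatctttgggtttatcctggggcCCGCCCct
Timp2 (chr11:118355412-118355661, strand minus): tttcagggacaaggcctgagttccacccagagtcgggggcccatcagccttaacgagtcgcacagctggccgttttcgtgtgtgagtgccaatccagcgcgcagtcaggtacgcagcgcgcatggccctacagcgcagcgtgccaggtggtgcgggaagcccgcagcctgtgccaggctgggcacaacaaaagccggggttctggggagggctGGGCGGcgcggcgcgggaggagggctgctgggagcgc
Mmp15 (chr8:95352046-95352295, strand plus): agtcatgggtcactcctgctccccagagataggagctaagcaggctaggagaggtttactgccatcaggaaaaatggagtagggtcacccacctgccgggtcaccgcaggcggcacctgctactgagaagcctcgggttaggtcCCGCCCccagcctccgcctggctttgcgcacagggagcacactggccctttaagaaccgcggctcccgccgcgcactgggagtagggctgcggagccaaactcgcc
Tll1 (chr8:64206009-64206258, strand minus): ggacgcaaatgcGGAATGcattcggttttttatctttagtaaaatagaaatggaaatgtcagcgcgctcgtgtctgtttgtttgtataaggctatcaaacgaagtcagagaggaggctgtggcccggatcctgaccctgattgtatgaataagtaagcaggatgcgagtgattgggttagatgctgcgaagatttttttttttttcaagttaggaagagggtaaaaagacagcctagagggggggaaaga

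Mmp13 and Mmp10, whose starts carry the AP-1 letters shortly before those of a TATA box, rested on 1, 0 and 0 against 2, 0 and 0 reads and on 4, 2 and 9 against 2, 0 and 4 reads. Timp1 holds GGAATG near the far end and the SP1 letters near the start, whereas Timp2 and Mmp15 hold only the latter. Tll1 is 1 of the 2 tested members here without the SP1 letters and holds GGAATG. These matches are descriptions of sequence and no evidence of binding.

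Proteins that activate or restrain these enzymes were compared from a list of 32 genes (activators, cofactors, convertases, the plasmin system, inhibitors and further astacins). Of 16 tested, 5 were higher, 6 lower and 5 not called in KO-labelled libraries (68.8% called, beside 39.2% of all tested genes). Their median log2 fold change was -0.041. The list was written with earlier results of these data known, so the share called only describes this list. The plasmin system, which activates several pro-MMPs, was split. Plaur, the urokinase receptor gene, had 86.3, 94.8 and 87.9 against 59.0, 53.5 and 58.7 FPKM (-0.64, SE 0.0523, limma adjusted p = 4.1e-05), and Plat, the tissue activator, had 129.7, 130.2 and 129.1 against 96.0, 89.3 and 97.0 FPKM (-0.46, SE 0.0412). Both fell without any overlap. Urokinase itself, Plau, rose from 142.3 ± 0.931 to 164.0 ± 5.42 FPKM (0.20). Plau was named after its values were seen. Pcolce, which enhances the tolloid proteinases, fell from 6.29 ± 0.489 to 4.29 ± 0.253 FPKM (-0.46, adjusted p = 0.0011), opposite to Tll1 and Bmp1. Bsg, an inducer of MMPs also known as EMMPRIN, fell from 337.8 ± 5.88 to 249.6 ± 10.1 FPKM (-0.44).

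Adam10 and Adam17 were not called, and the listed partners that carry them through the cell were mixed. Among the tetraspanins that escort ADAM10, Tspan17 rose from 11.97 ± 0.868 to 19.2 ± 2.14 FPKM (0.64, SE 0.0797, limma adjusted p = 4.0e-04) and Tspan14 from 15.8 ± 0.885 to 21.3 ± 0.589 FPKM (0.41, SE 0.0497). Tspan33, of the same group, fell from 9.39 ± 0.329 to 7.41 ± 0.331 FPKM (-0.30), and Tspan5, also of that group, had 22.2 ± 0.714 and 20.0 ± 1.48 FPKM and was not called (-0.14, adjusted p = 0.078). Tspan5 was called without Atg5KO replicate 3 (-0.18, adjusted p = 0.041). The replicate block, median-ratio scaling and removal of the length trend also called it lower (adjusted p = 0.034, 0.049 and 0.043). Both voom fits on recovered reads did so too (adjusted p = 0.040 and 0.043), and the other alternatives did not. Its groups did not overlap, but their nearest values, 21.4 and 21.3 FPKM, almost met. The iRhom genes, whose products bring ADAM17 to the surface, both rose: Rhbdf1 from 17.3 ± 0.382 to 21.1 ± 0.426 FPKM (0.27) and Rhbdf2 from 16.6 ± 0.295 to 19.3 ± 0.703 FPKM (0.20; adjusted p = 8.7e-04 and 0.0061). Frmd8, which stabilises the iRhoms, had 32.0 ± 1.01 and 33.2 ± 1.12 FPKM and was not called (0.05, adjusted p = 0.36). Tspan33, Tspan5, Frmd8, Furin and the iRhoms were named after their values were seen. The convertase Furin, which removes the inhibitory propeptide of many members, had 40.3 ± 1.72 and 39.3 ± 0.378 FPKM (SD, n = 3 each) and was not called.

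Listed targets of these enzymes went in both directions. Of 46 membrane and matrix proteins, 33 were tested, 13 higher, 11 lower and 9 not called (72.7% called, beside 39.2% of all tested genes). Their median log2 fold change was 0.06. This list, too, was written with earlier results of these data known, so the share called only describes it. The matrix genes Nid1 (nidogen, a basement membrane linker) and Fn1 (fibronectin) rose from 6.23 ± 1.04 to 17.7 ± 1.85 FPKM (1.38, SE 0.109) and from 237.4 ± 12.6 to 472.2 ± 31.9 FPKM (0.99, SE 0.0615). The Notch ligand gene Jag1 rose from 28.8 ± 1.4 to 59.99 ± 1.68 FPKM (1.03, SE 0.0449, limma adjusted p = 2.1e-06). Shed proteins of the tubule were among the decreases, but other shed targets were called higher, such as Cdh1 (0.54), which was named after its values were seen. Havcr1, the injury marker KIM-1, had FPKM of 88.3, 84.5 and 88.7 against 24.1, 20.7 and 28.1 (-1.81), and Areg, an EGF receptor ligand released by ADAM17, had 10.3, 11.3 and 9.71 against 2.41, 1.97 and 2.97 (-1.73). Kl, the Klotho gene, had 1.37, 1.71 and 1.64 against 0.337, 0.185 and 0.359 FPKM (-0.99). Kl passed the filter only through the F/F-labelled libraries, and Vcam1, counted among the 13 higher, only through the KO-labelled ones (0.572 ± 0.123 and 1.87 ± 0.600 FPKM), so for both a difference was built into the selection. Nid1, Fn1, Jag1, Havcr1, Areg and Kl had the 6 largest absolute differences among the called targets. Transcripts say nothing of how much protein was cut.

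**Figure D5:**
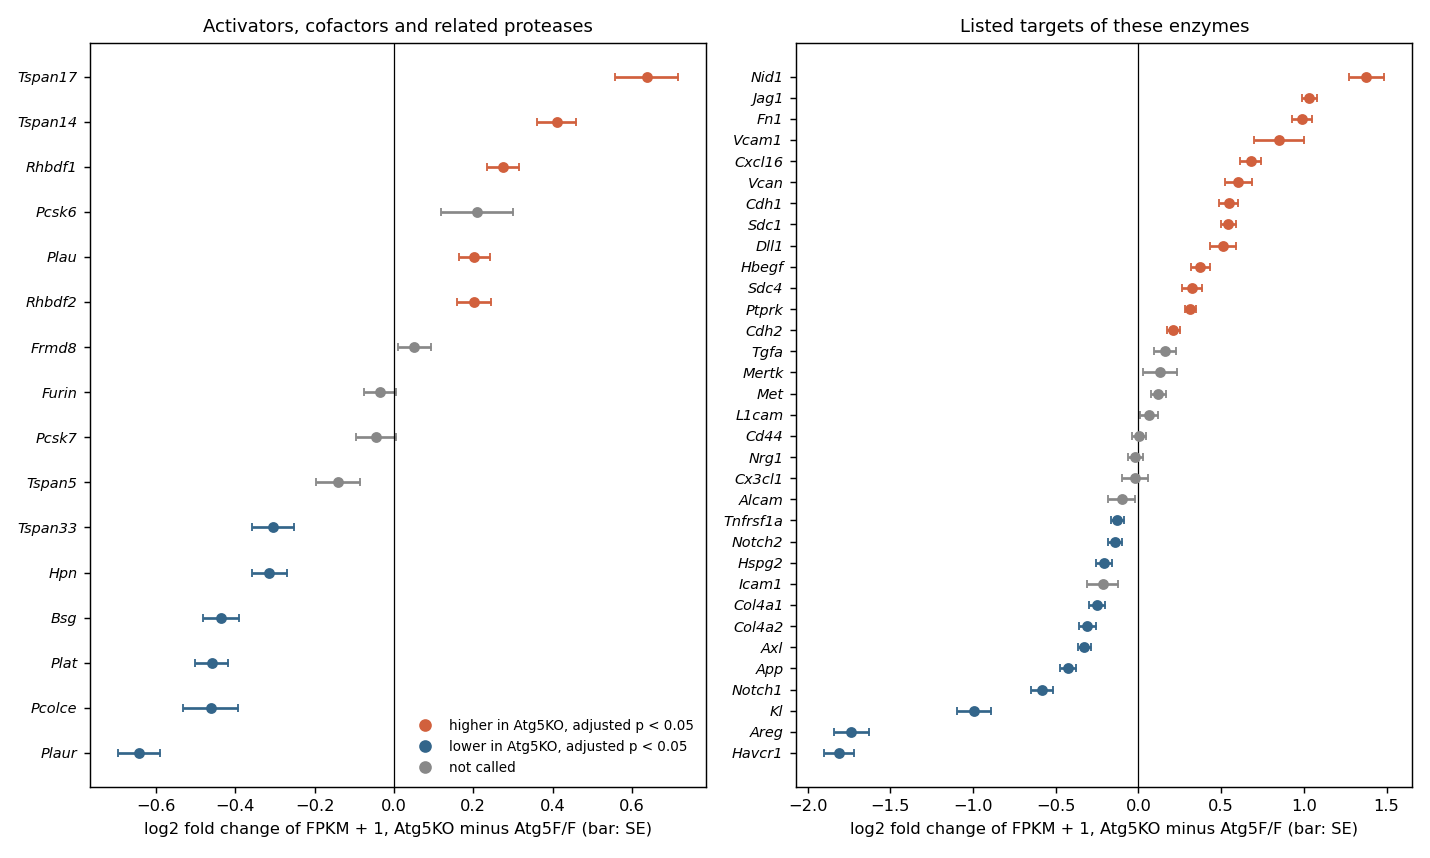
Log2 fold change of FPKM + 1 (horizontal axes, KO-labelled minus F/F-labelled, bars are SE) of the 16 tested regulators on the left and the 33 tested targets on the right. Regulators lie between -0.64 (Plaur) and 0.64 (Tspan17), and targets between -1.81 (Havcr1) and 1.38 (Nid1).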

How the data were processed

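RNA from 6 libraries of erastin2-treated proximal tubular cells was measured, 3 per genotype label, prepared with a stranded mRNA kit per the labels' protocols. Per the submitters' processing notes, the tools were HISAT2 2.1.0, featureCounts 1.4.6, edgeR, Trimmomatic 0.35 and bcl2fastq, with GRCm38 (mm10) as the build. The sources used here name no annotation, strand setting, multi-mapping rule or filter. The authors deposited FPKM per gene and library. The authors also deposited a log2 fold change, a p-value, an FDR and a rank score, of which the log2 values and FDR were read only for comparison.

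Every one of the 18296 rows above 0 gave whole reads in all libraries (100%, within 0.001 reads beside rounding of the printed digits) for 1 length per gene and 1 total per library, so depth was 15528454 to 30004933 reads. For genes with few reads the recovered reads are the smallest that fit. Log2(FPKM + 1) was tested with limma 3.58.1 (lmFit, eBayes with trend) in R 4.3.3 on genes with at least 1 FPKM in 3 libraries, without a replicate block. The table was read with Python 3.11.15, pandas 2.3.3 and numpy 2.4.6, and both the limma and the read-recovery steps were tested on simulated data. Gene positions and exons are from GENCODE vM21 on GRCm38.

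Named genes were Atg5, all called members, 17 well-known members whatever their result, the 5 highest below the filter, and up to 6 called genes of each list with the largest absolute change. Members and lists were chosen with earlier results of these data known. A gene of the list of regulators is not reported here and was left out of its counts. The alternatives tried were voom on recovered reads, removal of each library's loess trend on gene length (span 0.5), quantile normalization, median-ratio scaling, a 5 FPKM filter or none, 0.1 as pseudocount, fits that drop 1 library, and a block on the replicate number.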

Additional observations from a re-analysis of the deposited data

How the results depend on the processing

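The count of members called higher was 7 to 9 and that of members called lower 3 to 5 when single libraries were left out, the latter falling to 3 without replicate 2 or 3 of Atg5F/F or replicate 2 of Atg5KO. With voom on the recovered reads of all genes with at least 10 reads, added after seeing the data, the members called higher were 18 (9 before) and the regulators called higher 8 (5 before), with more genes tested. The other counts of members, regulators and targets stayed within 1.5 times under every alternative run. Adam10 turned to -0.026 and Adamtsl4 to -0.0034 with the length trend removed. Leaving out single libraries, sign changes occurred in genes that were not called: Adam17 ran from -0.043 to 0.016, Mmp2 from -0.14 to 0.075, Adamtsl4 from -0.033 to 0.17 and Reck from -0.027 to 0.11, and the cause was not tested. Same-numbered libraries of the groups had deviations correlated at 0.16, 0.08 and -0.02, and not every library correlated best with its own number, so the numbers were not taken as pairs. With the replicate block 9 members were higher and 5 lower. Over 44 tested genes named here and 15 alternatives, 611 values kept direction and call, 20 lost the call, 10 gained it (Adamts1, Mmp28 and, 6 times, Tspan5) and 11 changed sign. Members resting on few reads are limited by counting error.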
